A study of Mus musculus with 14 samples.

Results

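Mouse zinc finger genes with symbols from Zfp800 to Zfp999 were followed across 14 arrays of cells on the way to induced pluripotency. The members were all genes with such a symbol in the platform's annotation, with or without a final letter, on probe sets assigned to exactly 1 gene. This rule gave 67 genes of the 18193 genes on the array. The rule itself used no measured value, but the members were chosen with earlier results of these data known. Each gene was read through its brightest probe set, the one with the highest mean over the 14 arrays, and values are RMA signals on the log2 scale.

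The first 7 arrays held 4 kinds of cells. The 2i iPSCs were made by exposing the partial iPSC clones 2B1 and 5C5 to 2i, in which MEK and GSK3 are inhibited (1 array from each clone, female, C57BL/6). The embryonic stem cells (ESCs) were a Nanog-GFP transgenic line (male, C57BL/6) and the wild-type line EBRTcH3 (male, 129sv), both in serum with leukemia inhibitory factor (LIF). Mouse embryonic fibroblasts (MEFs) came from Nanog-GFP transgenic embryos of mixed sex, grown without LIF (1 array, C57BL/6; 12.5 dpc in the sample title, 13.5 dpc in the series text). The untreated partial iPSCs were clones 2B1 and 5C5 in serum with LIF, reprogrammed cells that had stopped short of the pluripotent state (1 array each, female, C57BL/6). The other 7 arrays held 2B1 cells infected with retrovirus and kept in serum with LIF, 1 array each for Trim28, Cnot1, Cnot2, Cnot3, Cnot1 to Cnot3 together, Nanog and the empty vector. Each partial line is 1 clone. Where ESCs are compared with iPSCs, sex, line and cell state cannot be told apart, and for EBRTcH3 neither can strain. The 2i iPSCs also differ from the ESCs and the partial iPSCs in their exposure to 2i, which cannot be told apart from cell state.

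Genes of this symbol series encode proteins with C2H2 zinc fingers, in which each finger can contact a few bases of DNA, and many of them also carry a KRAB domain. A KRAB domain recruits the corepressor Trim28 (KAP1), which brings the histone methyltransferase Setdb1 and HP1 proteins to the bound DNA. In mouse ESCs this system is known for silencing endogenous retroviruses, and its zinc finger genes lie in clusters of recent duplicates. Zfp809 is known to recruit Trim28 to the primer binding site of murine leukemia viruses, Zfp819 to bind Trim28 in pluripotent cells, Zfp932 to repress retroviral elements in ESCs, and Zfp982 to act in keeping ESCs undifferentiated.

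The 67 members lay on 14 chromosomes, with 17 genes on chromosome 17 and 10 each on chromosomes 7 and 8. In the RefSeq annotation of GRCm38.p6, 45 of them fell into 12 runs, in which each member lies within 2 Mb of the next on the same chromosome, and 22 stood alone. This definition of a run was chosen after the values were seen. The largest run, on chromosome 17, held 10 members (Zfp948, Zfp983, Zfp820, Zfp995, Zfp942, Zfp943, Zfp994, Zfp944, Zfp946 and Zfp945). A run on chromosome 4 held Zfp980, Zfp991, Zfp982 and Zfp979, and one on chromosome 7 held Zfp975, Zfp936 and Zfp819.

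Promoter sequences of 62 members were matched in RefSeq (GRCm38.p6), in windows of 300 bases with 250 before and 50 after the start of transcription, 76 windows in all. The 3 chromosome 4 windows below are shown because Zfp979 and Zfp982 were among the 3 members with the largest differences between pluripotent and partial cells, and because they are close to each other and to Zfp980 in sequence. Capitals mark the longest stretch identical in all 3, which is 33 bases. The windows lie at chr4:147642459-147642758 (minus strand) for Zfp979, chr4:145670447-145670746 (plus strand) for Zfp980 and chr4:147492167-147492466 (plus strand, the second annotated start) for Zfp982.
Zfp979: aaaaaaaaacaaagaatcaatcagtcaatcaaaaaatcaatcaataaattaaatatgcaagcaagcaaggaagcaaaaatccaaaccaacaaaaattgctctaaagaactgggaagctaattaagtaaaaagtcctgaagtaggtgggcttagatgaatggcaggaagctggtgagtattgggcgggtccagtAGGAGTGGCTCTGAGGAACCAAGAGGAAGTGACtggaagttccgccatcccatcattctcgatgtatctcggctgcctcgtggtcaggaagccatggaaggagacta
Zfp980: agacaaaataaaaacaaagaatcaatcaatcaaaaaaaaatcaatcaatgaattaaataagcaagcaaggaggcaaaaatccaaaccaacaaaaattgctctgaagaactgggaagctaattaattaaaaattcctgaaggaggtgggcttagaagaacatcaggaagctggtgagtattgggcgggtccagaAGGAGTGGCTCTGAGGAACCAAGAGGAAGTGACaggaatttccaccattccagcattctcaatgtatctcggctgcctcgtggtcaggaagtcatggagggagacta
Zfp982: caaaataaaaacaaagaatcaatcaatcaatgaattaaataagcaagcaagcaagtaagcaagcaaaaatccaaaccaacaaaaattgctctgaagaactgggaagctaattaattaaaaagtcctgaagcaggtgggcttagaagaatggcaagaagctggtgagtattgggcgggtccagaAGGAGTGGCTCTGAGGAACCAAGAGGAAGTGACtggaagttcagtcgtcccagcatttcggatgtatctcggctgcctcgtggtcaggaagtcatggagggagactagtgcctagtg

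The other pair is shown because Zfp936 and its neighbour Zfp975 were both higher in ESCs. Their windows lie at chr7:43177340-43177639 (plus strand) and chr7:42692669-42692968 (minus strand). Capitals mark their longest shared stretch, which is 32 bases.
Zfp936: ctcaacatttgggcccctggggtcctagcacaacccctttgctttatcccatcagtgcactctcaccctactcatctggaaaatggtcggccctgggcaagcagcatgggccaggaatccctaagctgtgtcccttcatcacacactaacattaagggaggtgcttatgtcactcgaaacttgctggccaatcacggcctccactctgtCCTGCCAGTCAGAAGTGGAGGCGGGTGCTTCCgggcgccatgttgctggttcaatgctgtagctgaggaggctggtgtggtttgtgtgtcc
Zfp975: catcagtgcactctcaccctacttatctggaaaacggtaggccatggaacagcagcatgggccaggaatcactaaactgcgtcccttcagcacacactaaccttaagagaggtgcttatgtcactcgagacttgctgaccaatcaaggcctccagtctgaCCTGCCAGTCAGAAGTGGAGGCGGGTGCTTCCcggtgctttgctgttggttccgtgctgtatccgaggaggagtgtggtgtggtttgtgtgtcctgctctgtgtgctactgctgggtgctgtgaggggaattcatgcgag

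Aligned over their whole length, the Zfp979 window was identical to that of Zfp980 at 89.5% of columns and to that of Zfp982 at 84.6%, and Zfp980 and Zfp982 were identical at 84.5%. Among 2833 pairs of member windows the median identity was 46.6%, and 5 pairs reached 80%, each pair within 1 run. The other 2 of these pairs were Zfp955a with Zfp955b at 100% and Zfp942 with Zfp944 at 84.3%, all on chromosome 17. Zfp936 and Zfp975 were identical at 63.6%. Only these windows were aligned, and transcripts and probes were not compared. If the genes of such a pair are also alike in their transcripts, a probe set of one may bind transcripts of the other. Levels within a pair are therefore uncertain.

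Members' windows held a median of 10 CG dinucleotides, against 7 over all 32851 windows in the table. The windows of Zfp979, of Zfp982 at the start shown and of Zfp936 held 5, 5 and 6. The windows at the other annotated starts of Zfp982 held 16 and 2, and Zfp991 had no window. Motifs were searched on both strands. The E-box CACGTG was present in 8 of 76 member windows (10.53%), against 7.15% of all windows, and 6 of those 8 belonged to the 10-member run on chromosome 17 (Zfp820, Zfp942, Zfp943, Zfp944, Zfp946 and Zfp994). The octamer ATGCAAAT was in 0 member windows, against 1.735% of all windows, and AAGGTCA, a sequence bound by Esrrb, in 1 (1.316%), against 4.718%. These matches describe the letters in the windows and are not binding sites.

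Of the 67 members, 57 were tested, having a signal of at least 5.42, the median of all values, on 2 or more arrays. The other 10 (Zfp804a, Zfp853, Zfp874a, Zfp879, Zfp882, Zfp957, Zfp963, Zfp972, Zfp974 and Zfp980) were too dim to be tested. Over the 7 arrays of the first block, the 57 tested members had a median range of 1.77 on the log2 scale, against 1.42 over all 12663 genes tested. A range under 1 was found for 8 members (14%), against 30.5% of all genes, and a range of at least 2 for 19 members (33.3%), against 32.3%. The widest ranges were 7.87 for Zfp982, 7.12 for Zfp936, 6.82 for Zfp979 and 5.65 for Zfp991. Among the transduced 2B1 arrays the median range of the members was 0.60, against 0.61 over all genes.

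**Figure D1:**
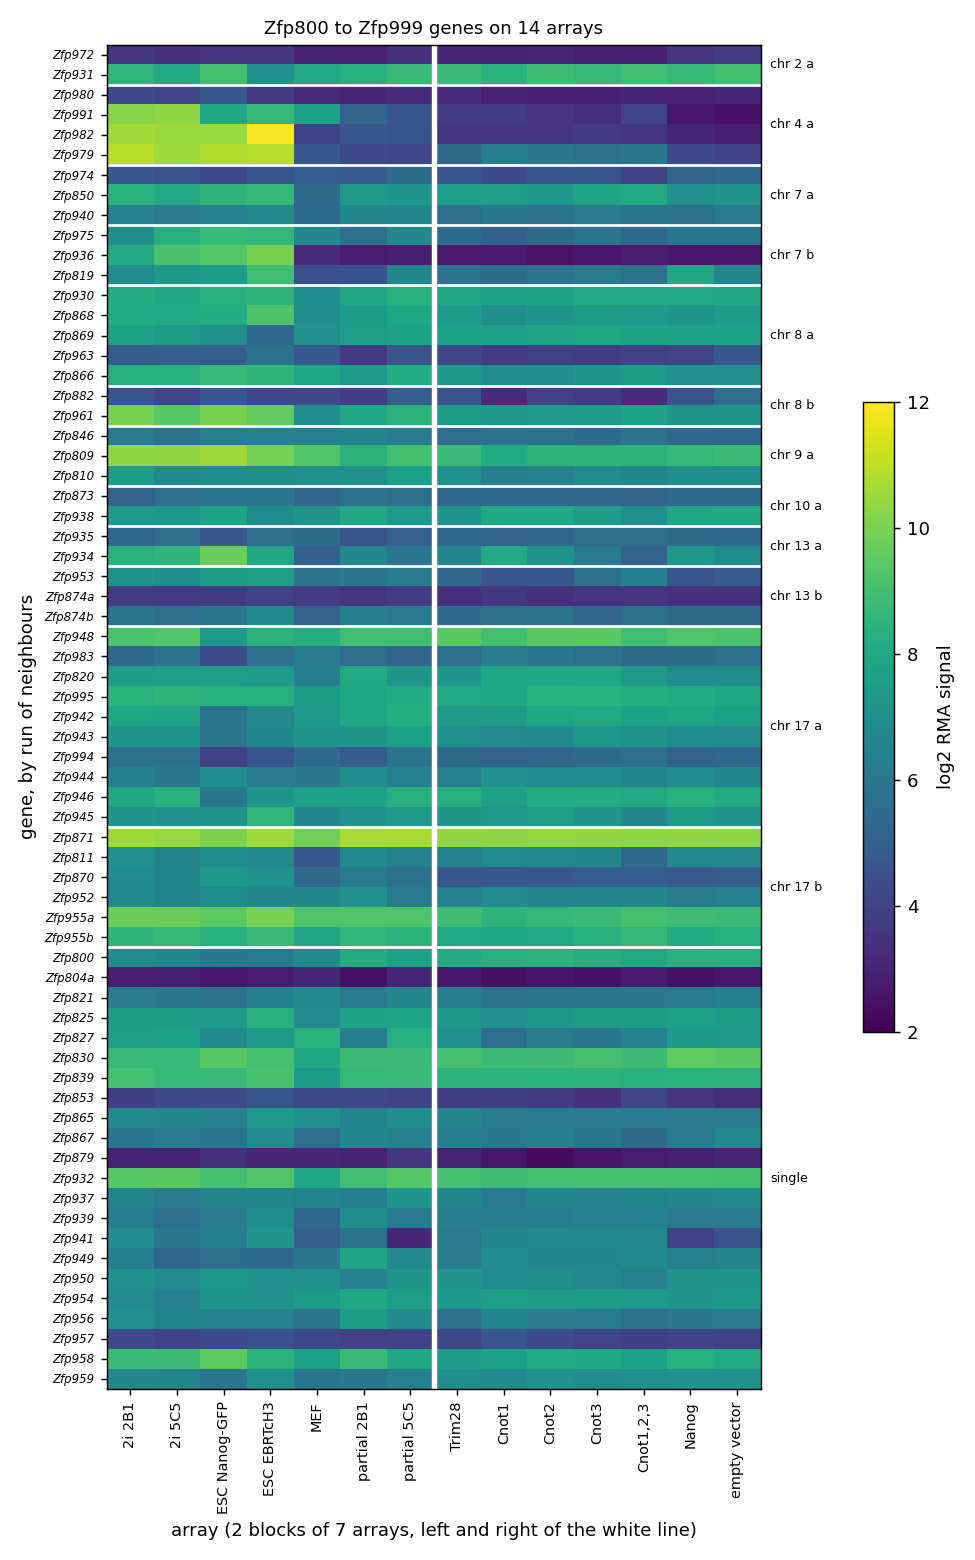
Colour gives the log2 RMA signal of each of the 67 genes (rows, by run of neighbours on a chromosome) on each of the 14 arrays (columns, with the first block of 7 arrays left of the white line and the transduced 2B1 cells right of it). Zfp979, Zfp982, Zfp936 and Zfp991 are bright on the 2i iPSC and ESC arrays and dark on the partial iPSC arrays.

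The labels of the cells were checked against marker genes. The 9 pluripotent markers, such as Nanog and Esrrb, averaged 11.6 and 11.5 on the 2i iPSC arrays, 11.9 and 12.2 on the ESC arrays and 4.43 on the MEF array, against 4.34 and 4.26 on the partial iPSC arrays. The 9 fibroblast markers, such as Col1a1 and Thy1, averaged 9.75 and 9.89 in 2i iPSCs, 4.90 and 4.75 in ESCs and 12.6 in MEFs, against 9.01 and 8.69 in partial iPSCs. All 9 were called higher in 2i iPSCs than in ESCs. In bulk samples, fewer cells of a type and less RNA per cell cannot be told apart.

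Conversion under 2i was compared first. Zfp979, Zfp982 and Zfp991 on chromosome 4 and Zfp936 on chromosome 7 rose by 5.29 to 6.52 on the log2 scale in 2i iPSCs relative to partial iPSCs. They were 4 of 57 members called higher, against 3.55% of all genes, and 0 of 57 were called lower, against 2.46%. A call needed an adjusted p below 0.05 from limma, with Benjamini-Hochberg adjustment over the 12663 genes. At an unadjusted p below 0.05 there were 14 of 57 members, 11 higher and 3 lower, against 24.3% of all genes in either direction. The median difference of the members was 0.122, against 0.029 over all genes, with 31 of 57 above 0.

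Zfp979 read 10.96 in the 2i iPSCs from 2B1 and 10.52 in those from 5C5, against 4.29 and 4.14 in the untreated 2B1 and 5C5 cells. Its difference was 6.52 ± 0.22 (SE, n = 2 arrays a group; limma adjusted p = 0.000869). Both 2i arrays lay far above both partial arrays, and the 2 clones moved almost alike, by 6.67 in 2B1 and 6.38 in 5C5.

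Zfp982 read 10.63 and 10.48 in 2i iPSCs, against 4.72 and 4.60 in partial iPSCs. The difference was 5.90 ± 0.48 (SE; limma adjusted p = 0.00683). The groups did not overlap. Its probe set is one that the manufacturer marks as holding probes shared with other transcripts. Its 2 other probe sets gave differences of 3.00 and 1.58, in the same direction and smaller.

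Zfp991 read 10.20 and 10.30 in 2i iPSCs, against 5.27 and 4.66 in partial iPSCs, a difference of 5.29 ± 0.36 (SE; limma adjusted p = 0.00461). A second probe set gave 5.37 and the dimmest, close to background on every array, gave 0.05. Zfp936 read 8.13 and 9.13 in 2i iPSCs, against 2.81 and 2.90 in partial iPSCs, where it was near the lower end of the scale. Its difference was 5.77 ± 0.40 (SE; limma adjusted p = 0.00468), whose size is no exact measure since the partial level is background. For both genes each 2i array was above each partial array. Zfp979, Zfp982, Zfp991 and Zfp936 all read under 5.42 in partial iPSCs. Zfp982 and Zfp936 passed the filter only through the 2i iPSC and ESC arrays, and Zfp991 only through those and the MEF array, so that these genes entered the test because they were high there.

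With either 2i array left out, Zfp982 lost its call (limma adjusted p = 0.0834 without the 2B1 array and 0.0863 without the 5C5 array), and so did Zfp991 (0.0601 and 0.0623). Their differences stayed between 5.24 and 5.97, and Zfp979 and Zfp936 kept their calls.

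Zfp980, the fourth gene of the chromosome 4 run, was too dim for a test, with 4.32 and 4.07 in 2i iPSCs, against 3.04 and 3.18 in partial iPSCs. Several members lay just outside the call. Zfp809 read 10.31 and 10.32 in 2i iPSCs, against 8.42 and 8.97 in partial iPSCs (1.62 ± 0.31, SE; limma adjusted p = 0.0509). Zfp800 read 6.83 and 6.68 in 2i iPSCs, against 8.15 and 7.69 in partial iPSCs (-1.17 ± 0.23, SE; limma adjusted p = 0.0535). In neither gene did the groups overlap on these probe sets. The other probe sets of Zfp800 gave differences from -2.20 to 0.01, with -0.24 and 0.01 for the next brightest. Of the 2 other members known for acting on retroviral sequence, Zfp819 differed by 1.53 ± 0.80 (SE; limma adjusted p = 0.321), with 4.53 in untreated 2B1 and 6.57 in untreated 5C5. Zfp932 differed by 0.28 ± 0.23 (SE; limma adjusted p = 0.518).

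ESCs were set against the same partial iPSC arrays, so the comparison shares its controls with the one above. Here 11 of 57 members were called higher, against 6.09% of all genes, and 2 were called lower, against 9.82%. The median difference of the members was 0.192, against 0.003 over all genes, with 33 of 57 above 0. The genes called higher were Zfp936, Zfp979, Zfp982, Zfp991, Zfp934, Zfp975, Zfp809, Zfp961, Zfp953, Zfp870 and Zfp850. Those called lower were Zfp800 and Zfp942.

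**Figure D2:**
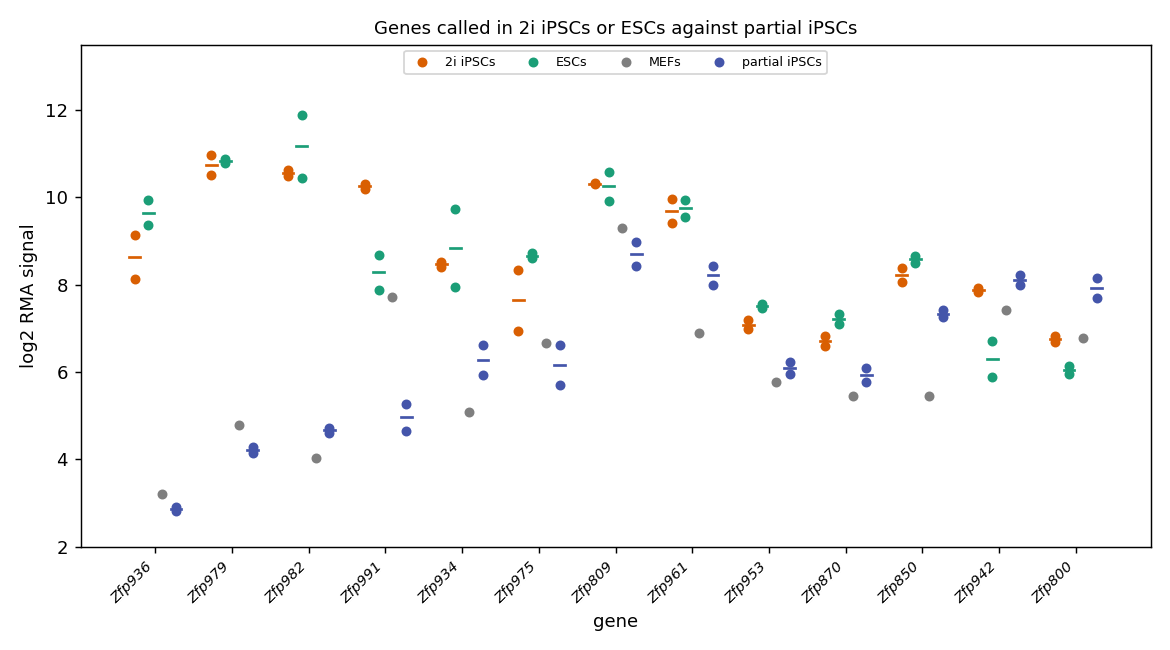
Points give the log2 RMA signal on each array and short bars the mean of 2 arrays for the 13 genes called in 2i iPSCs or ESCs against partial iPSCs (x axis). Zfp936, Zfp979 and Zfp982 lie between 8.13 and 11.89 on the 2i iPSC and ESC arrays, against 2.81 to 4.72 in partial iPSCs.

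Zfp936 read 9.36 in Nanog-GFP ESCs and 9.94 in EBRTcH3 ESCs, against 2.81 and 2.90 in partial iPSCs (6.79 ± 0.40, SE; limma adjusted p = 0.00147). Zfp979 read 10.79 and 10.89 in ESCs, against 4.29 and 4.14 in partial iPSCs (6.62 ± 0.22, SE; limma adjusted p = 0.000512). Zfp982 read 10.46 and 11.89 in ESCs, against 4.72 and 4.60 in partial iPSCs (6.51 ± 0.48, SE; limma adjusted p = 0.00237). In all 3 genes both ESC lines lay far above both partial clones. Zfp936 was at background in the partial clones, so the size of its difference is no exact measure. Zfp991 read 7.88 and 8.69 in ESCs, against 5.27 and 4.66 in partial iPSCs (3.32 ± 0.36, SE; limma adjusted p = 0.00573). These 4 genes kept their calls under every alternative tried. Zfp936, Zfp982 and Zfp991 entered this test too only through arrays where they were high, as given above. Their place among the genes called is therefore no separate support.

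A second set of genes rose by less. Zfp934 read 9.74 and 7.95 in ESCs, against 6.62 and 5.93 in partial iPSCs (2.57 ± 0.62, SE; limma adjusted p = 0.0496). Its other probe set gave a difference of 2.94. Zfp975, the neighbour of Zfp936, read 8.72 and 8.61 in ESCs, against 5.69 and 6.62 in partial iPSCs (2.51 ± 0.54, SE; limma adjusted p = 0.0381), and its other probe set gave 2.53. In both genes the ESC lines were above both partial clones, and the 2 ESC lines were close together for Zfp975 and far apart for Zfp934.

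Zfp809, the gene with a known part in silencing murine leukemia viruses, read 10.59 and 9.92 in ESCs, against 8.42 and 8.97 in partial iPSCs (1.56 ± 0.31, SE; limma adjusted p = 0.0324). Zfp961, Zfp953, Zfp870 and Zfp850 rose by 1.54, 1.41, 1.29 and 1.24, with limma adjusted p of 0.0303, 0.0129, 0.0211 and 0.0196. Each of them was higher on both ESC arrays than on both partial arrays. When the comparison was fitted on its own 4 arrays, Zfp809, Zfp934, Zfp961, Zfp953, Zfp870 and Zfp850 lost their calls, with limma adjusted p between 0.0552 and 0.119. A single array also decided some of these calls. Zfp809, Zfp934, Zfp961 and Zfp850 lost theirs without either partial clone (limma adjusted p between 0.0505 and 0.16), Zfp870 without 5C5 (0.0709), Zfp953 without 2B1 (0.0508), and Zfp809 and Zfp961 without Nanog-GFP ESCs (0.0601 and 0.0710). Zfp975 lost its call without any 1 of the partial or ESC arrays (0.0592 to 0.130).

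Zfp800 fell. It read 5.96 and 6.14 in ESCs, against 8.15 and 7.69 in partial iPSCs (-1.87 ± 0.23, SE; limma adjusted p = 0.00846), and all 7 of its probe sets were lower in ESCs, by 0.90 to 2.56. Zfp942 fell to 5.89 and 6.72 in ESCs, against 7.98 and 8.22 in partial iPSCs (-1.80 ± 0.32, SE; limma adjusted p = 0.0224). It lost its call on the 4 arrays alone (limma adjusted p = 0.0754), without 2B1 (0.0676) and without 5C5 (0.0801). Its 2 other probe sets were near background.

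Zfp942 belongs to the 10-member run on chromosome 17, and 8 of those 10 genes were below 0 in ESCs relative to partial iPSCs, with a median of -0.72 and a range from -1.80 to 0.64. Only Zfp942 was called among them. In 2i iPSCs the same 10 genes had a median of 0.02, with 5 above and 5 below 0. The neighbouring 6-member run on the same chromosome had a median of 0.22 in ESCs, with 5 of 6 above 0.

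The 2 ESC lines stood differently from gene to gene within the 10-member run. Zfp943 read 5.85 in Nanog-GFP ESCs and 6.66 in EBRTcH3 ESCs, against 7.29 and 7.67 in partial iPSCs (-1.23 ± 0.33, SE; limma adjusted p = 0.0638). Zfp946 read 6.05 and 7.26 in ESCs, against 7.71 and 8.30 in partial iPSCs (-1.34 ± 0.46, SE; limma adjusted p = 0.116). Zfp948 read 7.39 and 8.42 in ESCs, against 8.93 and 8.93 in partial iPSCs (-1.03 ± 0.36, SE; limma adjusted p = 0.123). In each of these the Nanog-GFP line was the lowest of the 7 arrays and EBRTcH3 lay between it and the partial clones. Zfp942 and Zfp994 showed the same order, and Zfp820, Zfp944, Zfp945, Zfp983 and Zfp995 did not. Zfp944 read 6.91 in Nanog-GFP ESCs and 6.17 in EBRTcH3 ESCs, against 6.91 and 6.41 in partial iPSCs. Zfp995 read 8.35 and 8.26 in ESCs, against 7.88 and 8.16 in partial iPSCs.

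**Figure D3:**
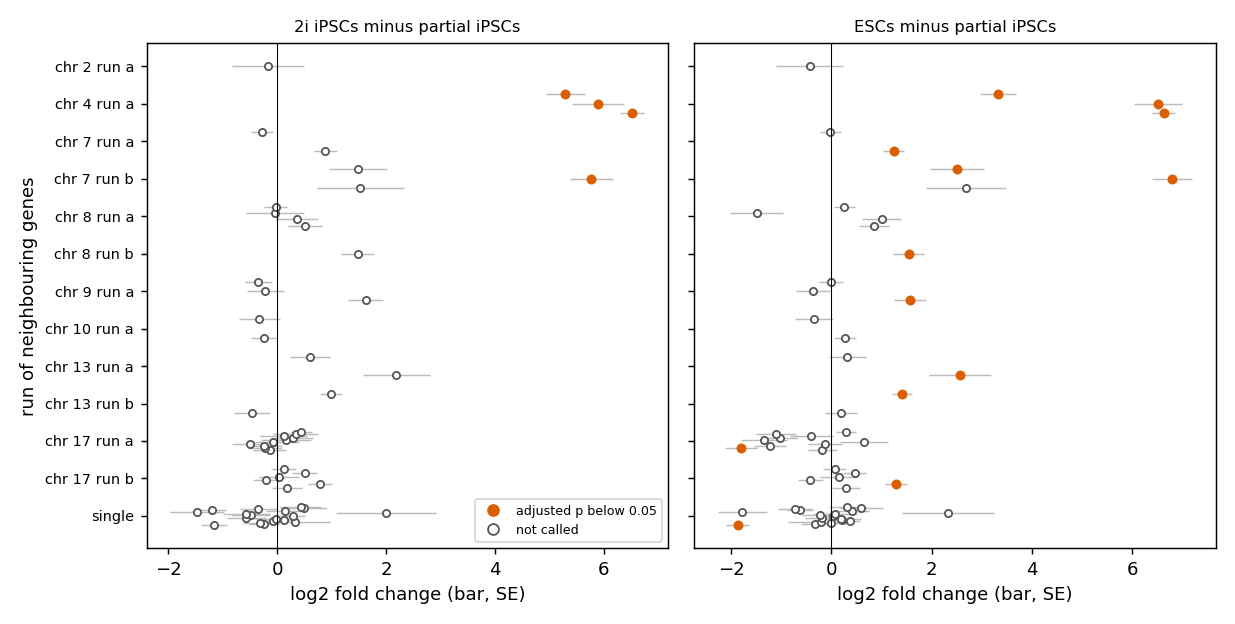
Points give the log2 fold change (x axis, bar = SE) of each tested gene against partial iPSCs, by run of neighbouring genes (y axis), with 2i iPSCs on the left and ESCs on the right, and filled points are called at a limma adjusted p below 0.05. The 3 tested genes of the chromosome 4 run are called in both panels, and the 10 genes of the larger chromosome 17 run reach down to -1.80 in ESCs.

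Zfp825 was read differently by its probe sets. Its brightest gave -0.01 in ESCs relative to partial iPSCs and another gave 2.77, with 6.63 and 7.47 in ESCs, against 4.21 and 4.34 in partial iPSCs. This gene was named after its values were seen. No member had probe sets that differed by 1 or more in opposite directions in any of the 3 tested comparisons.

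The differences left after conversion were sought by setting 2i iPSCs against ESCs. No member was called, with 0 of 57 higher, against 3.69% of all genes, and 0 of 57 lower, against 0.158%. At an unadjusted limma p below 0.05 there were 9 of 57 members, 8 higher and 1 lower in 2i iPSCs, against 15.9% of all genes in either direction. The median difference was -0.103, against 0.003 over all genes. For Zfp979 the difference was -0.10 ± 0.22 and for Zfp982 it was -0.62 ± 0.48 (SE; limma adjusted p = 0.875 and 0.607). The other probe sets of Zfp982 gave -0.15 and -1.91. The last of these read 5.90 and 5.96 in 2i iPSCs, against 7.68 and 8.01 in ESCs, so the probe sets differed in size.

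Zfp991 came nearest to a call. It read 10.20 and 10.30 in 2i iPSCs, against 7.88 and 8.69 in ESCs (1.97 ± 0.36, SE; limma adjusted p = 0.0558). Its second probe set read 9.54 and 9.31 in 2i iPSCs, against 10.11 and 8.51 in ESCs, a difference of 0.12, so the 2 probe sets gave different answers. In MEFs the first probe set read 7.72, and the fibroblast markers were also higher in 2i iPSCs than in ESCs. Their part in the difference was not tested. Zfp942 read 7.92 and 7.84 in 2i iPSCs, against 5.89 and 6.72 in ESCs (1.58 ± 0.32, SE; limma adjusted p = 0.0718).

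MEFs gave 1 array and no test. Relative to both partial clones, 1 of 57 members was at least 2-fold higher in MEFs, against 9.9% of all genes, and 8 were at least 2-fold lower, against 11.3%. The one above was Zfp991, with 7.72 in MEFs, against 5.27 and 4.66 in partial iPSCs. Those below were Zfp811, Zfp820, Zfp839, Zfp850, Zfp930, Zfp932, Zfp940 and Zfp961. Zfp850 read 5.45 in MEFs, against 7.41 and 7.26 in partial iPSCs, and Zfp811 read 4.77, against 6.77 and 6.38. The median difference of the members from the mean of the partial clones was -0.51, against -0.07 over all genes, with 15 of 57 above 0. Zfp979, Zfp982 and Zfp936 read 4.79, 4.02 and 3.21 in MEFs, and differed from the 2 partial clones by -0.70 to 0.65.

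The corepressor side of the system was followed through a list of 27 genes, Trim28 and its partners, of which 26 were tested. Relative to partial iPSCs, 1 of them rose and 0 fell with 2i conversion, against 3.55% and 2.46% of all genes, and 5 rose and 1 fell in the ESC lines, against 6.09% and 9.82%. The list's medians were 0.19 and 0.32, against 0.03 and 0.003 over all genes. Trim28 itself read 12.89 and 13.01 after conversion and 13.17 and 13.19 in the ESC lines, against 11.95 and 12.49 in partial iPSCs. It was not called in either (0.73 ± 0.24 and 0.96 ± 0.24, SE; limma adjusted p = 0.149 and 0.0554).

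Dnmt3b, a de novo DNA methyltransferase, rose in both, by 2.16 ± 0.36 in 2i iPSCs and 3.29 ± 0.36 in ESCs (SE; limma adjusted p = 0.0360 and 0.00613). In ESCs, Cbx1, which encodes HP1 beta, rose by 1.18, Smarcad1, a chromatin remodeler, by 1.06, the histone deacetylase gene Hdac1 by 0.98 and Morc3 by 0.91, with limma adjusted p of 0.0228, 0.0329, 0.0472 and 0.0316. Chd3, a remodeler of the NuRD complex, fell by 1.72 in ESCs (limma adjusted p = 0.0268). Setdb1 differed by -0.41 in 2i iPSCs and 0.12 in ESCs and was not called. In 2i iPSCs relative to ESCs, 0 of the 26 were called by limma.

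The transduced 2B1 arrays asked what a single factor does to these genes. Before any gene is read from them, the introduced genes were checked. On the array labelled Trim28, the brighter Trim28 probe set read 11.97, against 11.98 with empty vector, and the other read 11.12, against 11.45. Nanog read 3.12 on the array labelled Nanog, against 4.11 with empty vector, the 6 probe sets for Cnot2 differed by -0.32 to 0.08 on the Cnot2 array, and the 2 for Cnot3 by 0.06 and 0.30 on the Cnot3 array. Cnot1 is read only by probe sets assigned to several genes. The introduced cDNA did not show on these probe sets, and whether their probes lie in the part that was introduced was not tested. These 7 arrays have no replicates, and all 6 factor arrays share 1 empty vector array, so the comparisons below are not independent of each other.

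On the array labelled Trim28, 3 of 57 members read at least 2-fold above the empty vector array, against 0.963% of all genes, and 0 of 57 read at least 2-fold below, against 1.52%. Zfp941 read 6.16 on the Trim28 array, against 4.56 with empty vector, a difference of 1.60. Zfp979 read 5.47, against 4.01 (1.46), and Zfp991 read 3.79, against 2.47 (1.32). Both Zfp991 values lie under the filter level of 5.42 and the second is at background, so this difference is no exact measure, and the gene's second probe set read 3.82, against 3.49 (0.33). Among the 57 tested members, the lowest differences were -0.81 for Zfp819, -0.73 for Zfp938 and -0.68 for Zfp958. The median of the members was -0.03, against -0.02 over all genes.

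The same 3 genes, Zfp991 at signals under the filter level, also read above the empty vector array on the arrays with Cnot genes. Relative to the median of the 6 other transduced arrays, 0 members were 2-fold higher on it, against 1.42% of all genes, and 0 were lower, against 0.276%. On the Trim28 array 4 members lay above all 6 other arrays, against 10.1% of all genes, and 6 lay below all 6, against 9.45%. Without a second array of either kind there is no test.

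Zfp979 read 5.47 with Trim28, 6.26 with Cnot1, 6.01 with Cnot2, 5.74 with Cnot3 and 6.03 with all 3 Cnot genes, against 4.20 with Nanog and 4.01 with empty vector. The Nanog and empty vector arrays were low and the other 5 high. On the 2i iPSC arrays it read 10.96 and 10.52, in a block of arrays that was treated as normalized apart. Zfp941 read 6.16 with Trim28, 6.62 with Cnot1, 6.74 with Cnot2, 6.78 with Cnot3 and 6.72 with all 3, against 3.91 with Nanog and 4.56 with empty vector. Zfp941 also differed between the untreated clones, with 5.79 in 2B1 and 3.15 in 5C5, and its second probe set read 4.41 on the Trim28 array, against 3.90 with empty vector.

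**Figure D4:**
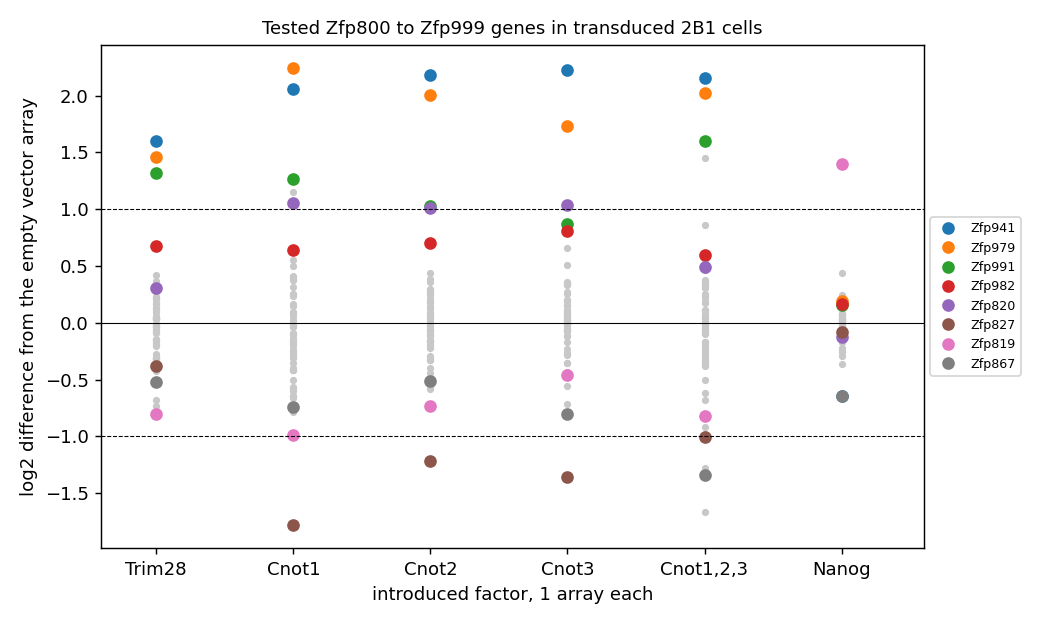
Points give the log2 difference of each of the 57 tested genes from the empty vector array (y axis, dashed lines at 2-fold) on the 6 arrays of 2B1 cells with an introduced factor (x axis, 1 array each), with 8 genes in colour that were chosen after the values were seen. Zfp941 and Zfp979 lie between 1.46 and 2.25 on all arrays but Nanog, where they lie at -0.65 and 0.19.

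Among the Ccr4-Not subunits, the Cnot1 array had 5 members at least 2-fold above empty vector, against 4.15% of all genes, and 1 below, against 5.87%. The Cnot2 array had 4 above, against 2.87%, and 1 below, against 3.89%. The Cnot3 array had 3 above, against 2.49%, and 1 below, against 5.19%. With all 3 there were 4 above, against 3.72%, and 4 below, against 8.43%. The Nanog array had 1 above, against 0.561%, and 0 below, against 0.869%.

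The genes above were largely repeated between these arrays. Zfp941 and Zfp979 were above on all 4 arrays with Cnot genes, and Zfp820 was above on the Cnot1, Cnot2 and Cnot3 arrays, by 1.06, 1.01 and 1.04. Zfp991 also passed 2-fold on the Cnot1, Cnot2 and combined arrays, but it read 2.47 to 4.07 on all 7 transduced arrays, under the filter level. Zfp934 was above by 1.15 with Cnot1. With all 3, Zfp953 was above by 1.45. Zfp819, the gene known to bind Trim28, read 7.94 with Nanog, against 6.54 with empty vector (1.40). It also differed between the untreated clones, with 4.53 in 2B1 and 6.57 in 5C5.

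Zfp827, whose human counterpart recruits the NuRD complex to telomeres, had the lowest difference of the 57 tested members on the Cnot1, Cnot2 and Cnot3 arrays, with 5.63, 6.20 and 6.06, against 7.41 with empty vector. It read 7.04 with Trim28 and 7.33 with Nanog, and the empty vector array was the highest of the 7. In the other block of arrays it also differed between the untreated clones, with 6.33 in 2B1 and 8.27 in 5C5. With all 3 it read 6.40, and Zfp934, Zfp867 and Zfp811 differed there by -1.67, -1.34 and -1.28. With no fold threshold, 24 of 57 members on the Cnot1 array lay below all 6 other transduced arrays, against 21.5% of all genes. This was the highest such count over the 7 arrays in either direction. On the combined array 12 members lay below all 6 others, against 24.1%, and on the Cnot3 array 1 did, against 7.74%. On the Nanog array the 3 lowest of the tested members, Zfp941, Zfp867 and Zfp940, differed from empty vector by -0.65, -0.64 and -0.36.

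Pairs of arrays within a group were compared in the same way. Between the untreated clones, 5C5 and 2B1, 2 members were at least 2-fold higher in 5C5, against 6.22% of all genes, and 3 were lower, against 4.41%. The largest of these were Zfp941 at -2.64, Zfp819 at 2.03 and Zfp827 at 1.95. Between the 2i iPSCs of the same clones, 2 members were higher in 5C5, against 1.25%, and 1 was lower, against 0.482%. The higher ones were Zfp975 at 1.38 and Zfp936, just past 2-fold, and the lower one was Zfp949 at -1.01.

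The 2 ESC lines differed more. EBRTcH3 was at least 2-fold above Nanog-GFP ESCs for 9 of 57 members, against 6.77% of all genes, and at least 2-fold below for 4, against 9.04%. Zfp982 was higher in EBRTcH3 by 1.43, Zfp819 by 1.42, Zfp945 by 1.40 and Zfp946 by 1.20. Zfp931 differed by -1.95, Zfp934 by -1.78, Zfp869 by -1.60 and Zfp958 by -1.05. Strain and line cannot be told apart here. Zfp979 differed by 0.09 between the 2 lines and by -0.44 between the 2i iPSCs of 5C5 and 2B1.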

How the data were processed

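Expression was measured on Affymetrix arrays of 45101 probe sets, 1 array for each of 14 samples. The values deposited by the authors are log2 signals, made with RMA and the affy package per the submitters' processing notes; their versions were not given in the sources used. Sets of arrays had nearly the same sorted values (median range 0.085 and 0.096 within the 2 blocks of 7, against 0.318 over all 14), so the blocks were treated as normalized apart and tests were made within a block. Probe sets were named from the platform annotation of 2016: 34945 had 1 gene, 932 several, 9160 none and 64 were controls. Another 7 symbols of the series (Zfp960, Zfp965, Zfp966, Zfp967, Zfp971, Zfp973 and Zfp981) occur only on probe sets with several genes and were not used. All 67 members matched RefSeq (GRCm38.p6) by gene identifier. Of the members, 36 had 1 probe set and 31 several.

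Genes below 5.42, the table's median, on all but 1 or on all arrays were left out, which kept 12663. Partial iPSCs, 2i iPSCs and ESCs (2 arrays each) were fitted together with limma 3.58.1 in R 4.3.3 (lmFit, eBayes, 3 residual and 2.25 prior degrees of freedom), with two-sided p-values adjusted by Benjamini-Hochberg over all genes, and called below 0.05. The procedure was tested on simulated data. The 2 arrays of a group come from different clones or lines, and nothing names separate cultures, so p-values measure the spread between these samples. Conditions with 1 array have no test, and a 2-fold difference is counted. The clone (the same cell line) pairs each untreated array with its 2i array, and the paired deviations had a correlation of 0.11.

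Named genes were the marker Zfp979, members called (up to 10 in each direction), those at least 2-fold apart on single arrays or the 3 farthest, members whose probe sets oppose each other by 1 or more, Zfp809, Zfp819 and Zfp932, and called genes of the Trim28 list. Other members named as near a call, in the chromosome 17 run or in pairs within groups were chosen after their values were seen. The members and lists were chosen with earlier results of these data known. Alternatives changed the scaling, the dim filter, the probe set, the fold, the arrays fitted and the block.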

Additional observations from a re-analysis of the deposited data

Results flagged for a closer look

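Zfp827 moved in opposite directions in the 2 clones: its 2i array minus its untreated array was 1.27 in 2B1 and -0.63 in 5C5. It read 7.59 and 7.64 in the 2i iPSCs of 2B1 and 5C5, against 6.33 and 8.27 in the untreated cells. The difference between the clones was not tested, since each clone has 1 array in each state. Opposite signs of any size were found for 17 of 57 members, and Zfp827 was the member that passed 1.5-fold in both. These counts were not made over all genes, so they say nothing particular to the members.

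Of the 9 probe sets that are assigned to several genes including one of the Zfp800 to Zfp999 series, and that entered no comparison, 3 had both 2i arrays at least 2-fold above both partial arrays. They differed by 6.05, 5.81 and 3.62 between 2i iPSCs and partial iPSCs. The first read 13.09 and 13.16 in 2i iPSCs, against 6.49 and 7.66 in partial iPSCs. In ESCs relative to partial iPSCs they differed by 5.92, 5.08 and 4.94. Which of their genes gave these signals was not tested. The same count was not made over all probe sets, so whether 3 of 9 is many cannot be said.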

How the results depend on the processing

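No tested result changed direction under the alternatives. The balance of some single-array counts did. At 1.5-fold the Cnot1 array had 6 members higher and 8 lower, in place of 5 and 1 (all genes 10.1% and 13.7%). The Nanog array had 1 higher and 2 lower, in place of 1 and 0 (all genes 2.15% and 2.99%). Relative to the median of the 6 other transduced arrays in place of empty vector, 2 of the 3 genes named on the Trim28 array changed direction. Zfp979 was at -0.41 in place of 1.46 and Zfp941 at -0.51 in place of 1.60, with Zfp991 at 0.37 in place of 1.32. For 2i iPSCs against partial iPSCs, the member counts (4 higher, 0 lower) stayed at 4 and 0 with the clone as a replicate block; the mean of all probe sets gave 1 lower, and leaving out 1 array gave 2 (either 2i array) to 6 (either ESC array) higher. For ESCs against partial iPSCs (11 higher, 2 lower), the 4 compared arrays alone gave 5 and 1, the mean of all probe sets gave 1 lower, and leaving out 1 array gave 5 (either 2i array) to 10 (either ESC array) higher and 1 (a partial or 2i array) to 5 (EBRTcH3) lower. Leaving out a 2i array there equals the 4 compared arrays. For 2i iPSCs against ESCs (0 and 0), leaving out 1 array gave 0 to 3 higher (3 without EBRTcH3) and 0 to 1 lower (1 without Nanog-GFP ESCs). A lone array was taken to vary like the other groups. The share of all genes called moved too. On the 4 compared arrays alone, 6.69% were called higher for 2i iPSCs against partial iPSCs, in place of 3.55%. For ESCs against partial iPSCs it was 2.28% higher and 3.88% lower, in place of 6.09% and 9.82%. For 2i iPSCs against partial iPSCs that share fell without either 2i array. The falls to 2 and 5 members higher were therefore not particular to the members. Not every count followed the share.

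Counts from single arrays moved with the threshold. At 1.5-fold, MEFs had 2 of 57 members higher and 19 lower than both partial clones, against 16.6% and 20.9% of all genes. Members lower than the empty vector array numbered 3 with Trim28 (all genes 5.99%), 8 with Cnot1 (13.7%), 2 with Cnot2 (9.84%), 3 with Cnot3 (11.8%), 9 with all 3 Cnot genes (16.2%) and 2 with Nanog (2.99%), and 7 were higher with Cnot3 (7.15%). Without the dim filter, 3 of all 67 members were lower with Cnot1 (all genes 4.35%), 2 with Cnot2 (2.92%), 2 with Cnot3 (3.89%) and 1 with Nanog (0.676%). With the mean of all probe sets, 2 of 57 were higher with Cnot1 (all genes 3.36%) and 2 with Cnot2 (2.17%). The Trim28 array had 0 members 2-fold higher relative to the median of the 6 other transduced arrays (all genes 1.42%), and 6 lower than all 6 (9.45%). The causes were not tested. With 2 arrays a group or 1, the number of arrays limits the precision, and the lowest signals are background.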
